A study of Mus musculus with 5 samples.

Results

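Genes of oxidative muscle metabolism, 7 in all, were followed in the soleus of 5 mice. They were 4 subunits of cytochrome c oxidase (Cox4i1, Cox5b, Cox6a2 and Cox8a), the pyruvate dehydrogenase subunit Pdha1, mitochondrial malate dehydrogenase (Mdh2) and myoglobin (Mb). The 7 genes were taken by symbol. Each was matched to 1 of the 223 probes on the array, of which 205 carried a gene symbol. All 5 samples belonged to 1 group: soleus of C57Bl/6 mice marked wt in the titles, on day 7 of reloading, numbered 1, 3, 4, 5 and 6 by their titles. Each array was given 3 microgram of total RNA from muscle cryosections. Age and sex are not stated in these sources, and muscle that was unloaded or never treated is not analysed here, so the only comparison open was between mice of this group.

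Oxidative muscle fibres make ATP mainly in mitochondria. Pyruvate enters through the pyruvate dehydrogenase complex, whose E1 alpha subunit is encoded by Pdha1, and the citrate cycle, of which Mdh2 catalyses the last step, passes its electrons to the respiratory chain. Cytochrome c oxidase, the final complex of that chain, hands the electrons to oxygen. Its catalytic core is encoded in mitochondrial DNA, while Cox4i1, Cox5b, Cox6a2 and Cox8a are nuclear genes whose products are built into the same complex. Cox4i1 and Cox5b are used in most tissues, Cox6a2 is the form of subunit VIa found in heart and skeletal muscle, and Cox8a is the ubiquitous form of subunit VIII. Myoglobin is not mitochondrial. It binds oxygen in the cytoplasm of slow and heart muscle fibres.

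As deposited, the ratios of the nuclear cytochrome oxidase genes to each other varied by 1.15-fold to 1.46-fold between the extreme mice. The ratios of these genes to myoglobin varied more over these 5 mice. Among the 6 pairs of subunits the SD over 5 mice of the log2 ratio within an array had a median of 0.14. For the 4 ratios of a subunit to Mb it was 0.28, and 0.18 when mouse 5 was left out. With quantile normalisation the medians over all 5 mice were 0.25 for the pairs of subunits and 0.35 for the ratios to Mb. On the linear scale the CVs of the 6 ratios between subunits, as deposited, ran from 5.82% to 15.9%. A ratio within an array does not change if the whole array is brighter or dimmer. Its size also holds how strongly each probe responds, so the constancy of a ratio between mice was read and its size was not taken as a ratio of transcripts. With a single group there was no test between conditions.

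The deposited values are linear intensities in arbitrary units, and the arrays were not on a common scale. Column totals ran from 70.8 to 137 and column medians from 0.013 to 0.0338, and between 20 and 59 probes per array were at or below 0. Probes with a value above 0 in every mouse, 147 in number, were taken as measured, and all 7 genes were among them. The lowest signal of any of the 7, relative to the median of its array, was 6.97 times that median, for Mdh2 in mouse 6. The tissue label was checked on muscle fibre markers: the 4 myosin heavy chains on the array (Myh1, Myh2, Myh4 and Myh7), desmin (Des) and Mb were above 0 in all mice. Of 4 immune cell markers on the array none was above 0 in every mouse. Markers of 2 other cell types were present: 6 of 6 endothelial markers and 2 of 2 markers of matrix-making cells (Fn1 and Pdgfra) were above 0 in all mice, with summed signals of 0.369 to 0.876 and 0.532 to 2.13. Their part in the results was not tested. The array of mouse 1 ranked the measured probes least like the others: its mean Spearman's rho with them, across probes, was 0.878, against 0.941 to 0.947 for the other arrays. Without mouse 1 the median log2 SD was 0.14 for the 6 subunit pairs, 0.31 for the 4 ratios to Mb and 0.18 for all 21 pairs. Whether the mice were raised or sampled together is not stated, and repeat arrays of a sample are not among the data. Spread between mice therefore holds measurement noise too.

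Cox4i1, a structural subunit of cytochrome oxidase, had deposited values of 0.859, 0.5, 0.553, 0.558 and 0.912 in mice 1, 3, 4, 5 and 6. The mean was 0.676 ± 0.193 (SD, n = 5). Mice 1 and 6 were high and the other 3 lay close together.

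Cox5b, a subunit that binds zinc on the matrix side of the complex, stood at 1.40, 0.827, 0.848, 0.980 and 1.61 in the same order of mice, with a mean of 1.13 ± 0.351 (SD, n = 5). Again mice 1 and 6 were above the rest. Cox6a2 was at 4.92, 2.39, 3.06, 2.68 and 4.61, with a mean of 3.53 ± 1.16 (SD, n = 5), and here mouse 1 was the highest. Cox8a was at 0.464, 0.301, 0.303, 0.312 and 0.637, with a mean of 0.403 ± 0.147 (SD, n = 5). Its values in mice 3, 4 and 5 were nearly equal, and mouse 6 stood above mouse 1. The CV of Cox8a (SD over mean, in percent) was 36.5%, and 23.0% without mouse 6.

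The genes of mitochondrial entry had the same highest and lowest mice as Cox6a2. Pdha1 was at 0.461, 0.238, 0.302, 0.268 and 0.389 in mice 1, 3, 4, 5 and 6 (mean 0.332 ± 0.0917, SD, n = 5). Mdh2 was at 0.301, 0.152, 0.162, 0.172 and 0.236 (mean 0.204 ± 0.0632, SD, n = 5). In both genes mouse 1 was the highest, mouse 6 came next and mouse 3 was the lowest. Pdha2, the testis form of the same pyruvate dehydrogenase subunit, has its own probe on the array. It was above 0 in only 2 of 5 mice, at 0.0129 and 0.0022 in mice 1 and 3, and at most at -0.0006 in the others. Cross-hybridisation of related transcripts to the other probes was not tested.

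Mb was at 3.98, 2.04, 2.80, 3.53 and 3.80 in mice 1, 3, 4, 5 and 6, with a mean of 3.23 ± 0.803 (SD, n = 5). Mouse 5, which was among the lower mice for every other gene of the group, lay close to mice 1 and 6 for Mb. The CV of Mb was 24.9%, and 14.8% without mouse 3.

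**Figure D1:**
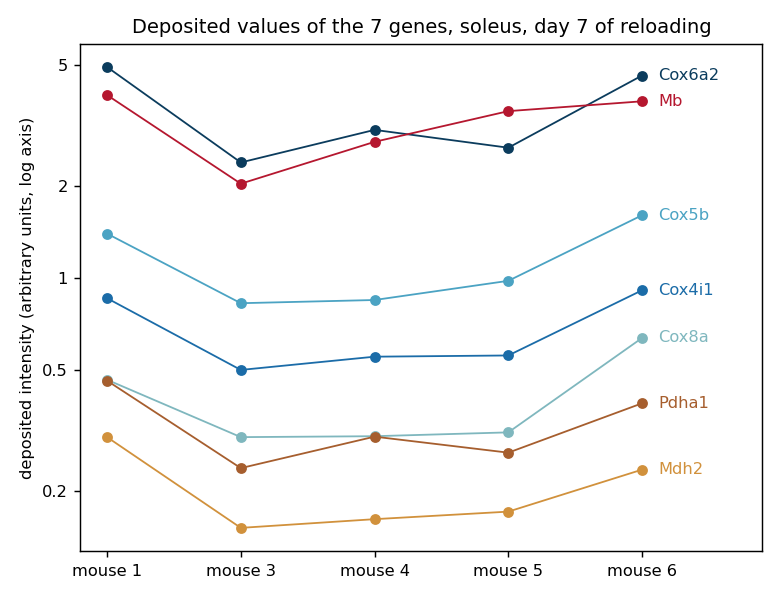
Deposited intensity (arbitrary units, log axis) of the 7 genes in each of the 5 mice, 1 point per array; lines only join the values of a gene. Mice 1 and 6 were the 2 highest for all 7 genes and mouse 3 was the lowest, while Mb in mouse 5, at 3.53, was well above Mb in mice 3 and 4.

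Mice 1 and 6 were the 2 highest for 7 of 7 genes, and mouse 3 was the lowest for 7 of 7. The arrays of mice 1 and 6 were bright in general. These mice were also the 2 highest for 80 of all 147 measured probes (54.4%) and for 19 of the 26 other probes at least as bright as Mdh2, the dimmest of the 7 genes. The column totals of mice 1 and 6 were 137 and 131, against 70.8 to 84.7 for the others. Mouse 3 was the lowest for 10 of the 26 bright probes, and its column total, 84.7, was above those of mice 4 and 5. Differences in the deposited level between mice therefore cannot be told apart from differences in brightness between arrays.

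Scaling changed which mouse was high. On the log2 scale, with each value relative to the gene's own mean over the mice, the average of the 7 genes as deposited was 0.43, -0.44, -0.23, -0.19 and 0.43 in mice 1, 3, 4, 5 and 6. The median measured probe moved by 0.33, -0.19, -0.17, -0.42 and 0.59. With each array divided by its median, Cox4i1, Cox5b, Cox8a and Mb were highest in mouse 5, and Mdh2, Pdha1 and Cox4i1 were lowest in mouse 6. Mdh2, Pdha1 and Cox6a2 stayed highest in mouse 1. With each array divided by its total without the brightest probe, the 7 genes made up 16.7%, 13.2%, 17.5%, 17.3% and 15.9% of the signal in mice 1, 3, 4, 5 and 6. In this setting the CVs of the 4 subunits were 6.39% for Cox4i1, 8.06% for Cox5b, 13.0% for Cox6a2 and 13.2% for Cox8a, and that of Mb was 20.7%. With the array median instead they were 22.1%, 24.1%, 24.6% and 16.6%, and 39.6% for Mb.

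**Figure D2:**
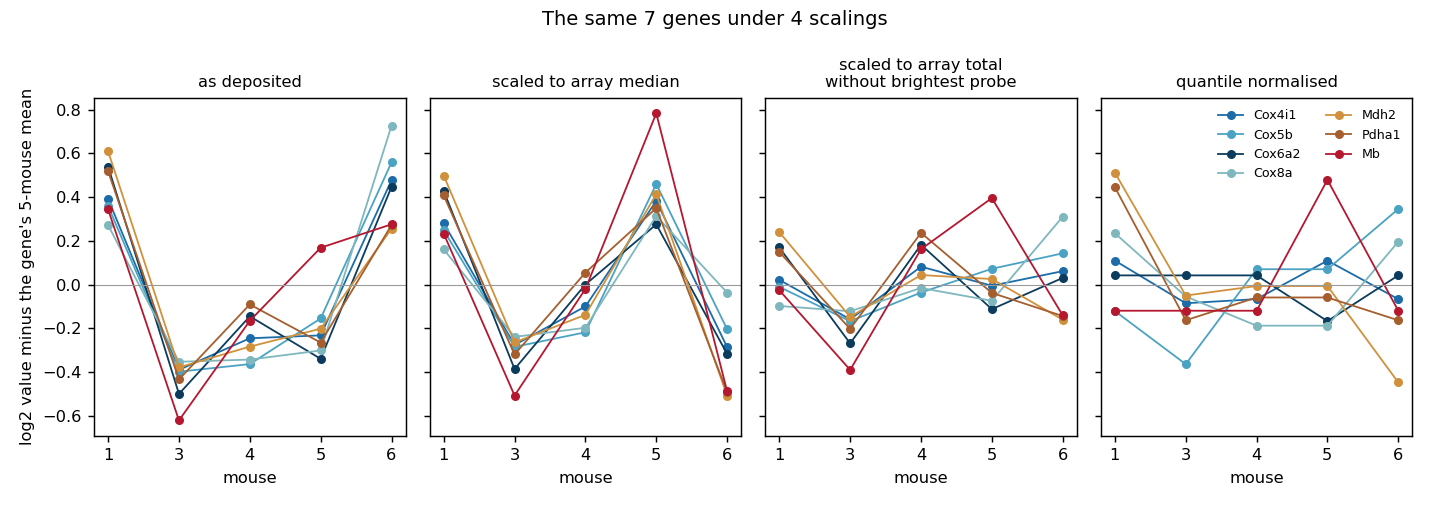
Log2 value of each of the 7 genes minus its own mean over 5 mice, under 4 scalings of the arrays; each point is 1 mouse and lines only join values of a gene. Mouse 6 was among the 2 highest for all 7 genes as deposited but below 0 for all 7 after scaling to the array median, while Mb was the highest gene of mouse 5 in each panel; quantile normalisation placed Mb at 1 value in the other 4 mice.

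Some ratios between the cytochrome oxidase subunits were steady as deposited. Cox4i1/Cox5b was 0.614, 0.604, 0.652, 0.569 and 0.568 in mice 1, 3, 4, 5 and 6, although the deposited values of each gene varied by 1.82-fold and 1.94-fold between the extreme mice. The highest of these ratios was 1.15 times the lowest, and the log2 SD was 0.083 (95% chi-square interval 0.050 to 0.24, which assumes normal log2 ratios). With quantile normalisation, which sets bright probes by rank, the log2 SD of this pair was 0.28. Cox4i1/Cox6a2 was 0.175, 0.209, 0.181, 0.208 and 0.198, with a log2 SD of 0.12. This pair joins a subunit used in most tissues with the muscle form, and its ratio still varied by only 1.20-fold. Cox5b/Cox8a was 3.01, 2.75, 2.80, 3.14 and 2.52, with the same log2 SD of 0.12.

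The 3 remaining pairs had larger log2 SDs as deposited. Cox4i1/Cox8a was 1.85, 1.66, 1.82, 1.79 and 1.43, with a log2 SD of 0.15, or 0.069 without mouse 6. Cox5b/Cox6a2 was 0.284, 0.346, 0.277, 0.366 and 0.348, with a log2 SD of 0.19. Cox6a2/Cox8a, at 10.6, 7.95, 10.1, 8.57 and 7.25, had the largest log2 SD of the 6 as deposited, at 0.23. With quantile normalisation it was 0.18, and Cox5b/Cox8a had the largest, at 0.31. As deposited, mice 1 and 4 were high in Cox6a2/Cox8a and mouse 6 was low. Relative to the other subunits Cox8a was highest in mouse 6 in 3 of 3 ratios. These ratios share the Cox8a value and are not independent. Over the 140 measured probes outside the 7 genes, Cox8a had its highest ratio in mouse 6 for 36 and its lowest there for 12. Over the 26 bright ones these counts were 11 and 1.

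The pyruvate and citrate cycle genes varied little in their ratio to each other, and Pdha1 in its ratio to Cox6a2. Mdh2/Pdha1 was 0.653, 0.637, 0.536, 0.641 and 0.606 in mice 1, 3, 4, 5 and 6, with a log2 SD of 0.11, or 0.046 without mouse 4. Cox6a2/Pdha1 was 10.7, 10.04, 10.1, 9.99 and 11.9, with a log2 SD of 0.10, or 0.044 without mouse 6. The mouse left out was in each ratio the 1 whose removal lowered the SD most, so a narrower band was built in. Without any other mouse the log2 SD was 0.12 to 0.13 for Mdh2/Pdha1 and 0.11 to 0.12 for Cox6a2/Pdha1. Cox6a2/Mdh2 was 16.3, 15.8, 18.9, 15.6 and 19.6, with a log2 SD of 0.15, about that of Cox4i1/Cox8a. The identifiers of the Mdh2 and Pdha1 probes, 20F and 20G, are neighbours, and whether identifiers give positions on the array is not stated. Over all 147 pairs of measured probes with neighbouring identifiers the median log2 SD was 0.69, and over the 5 such pairs in which both probes were at least as bright as Mdh2 it was 0.27. The part of position on the array was not tested.

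Every subunit was highest relative to both entry genes in mouse 6, in 8 of 8 ratios, which share genes and are not independent. Low ratios of the entry genes in mouse 6 were not limited to the subunits. Over the 140 measured probes outside the 7 genes, Mdh2 had its lowest ratio in mouse 6 for 54 and its highest there for 5. Over the 26 bright ones these counts were 8 and 2. For Pdha1 they were 51 and 6 over the 140, and 9 and 3 over the 26. The 8 ratios were tightest for Cox6a2/Pdha1 and loosest for Cox8a. Cox8a/Mdh2 was 1.54, 1.98, 1.87, 1.82 and 2.70 (log2 SD 0.30), and Cox8a/Pdha1 was 1.01, 1.26, 1.00, 1.17 and 1.64 (log2 SD 0.29). Without mouse 6 these SDs were 0.16 for both, and that of Cox5b/Mdh2 went from 0.20 to 0.13. The median over the 8 pairs was 0.18.

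Ratios to Mb were all lowest in mouse 5. Cox4i1/Mb was 0.216, 0.245, 0.198, 0.158 and 0.240 in mice 1, 3, 4, 5 and 6 (log2 SD 0.26). Cox5b/Mb was 0.351, 0.406, 0.303, 0.278 and 0.423 (log2 SD 0.26). Mouse 5 was lowest in both, and mouse 4 was next.

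Cox6a2/Mb was 1.24, 1.17, 1.09, 0.759 and 1.21 (log2 SD 0.29). In this ratio of the muscle-form subunit to the muscle oxygen carrier, 4 mice lay close together and mouse 5 stood below them. Cox8a/Mb was 0.117, 0.148, 0.108, 0.0885 and 0.168, and its log2 SD of 0.37 (95% chi-square interval 0.22 to 1.0) was the largest of all 21 pairs. The intervals of the tightest and the loosest pair overlap only between 0.219 and 0.239. Such an overlap is not a test of equal spread. These pairs were also picked as the extremes of 21 and come from the same arrays. The order of the pairs was not tested.

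Mb was highest relative to all 6 other genes in mouse 5, by between 1.32-fold over Cox5b and 1.55-fold over Cox6a2 against the geometric mean of the other 4 mice. The 6 ratios share the Mb value. Mb also had its highest ratio in mouse 5 over 92 of the 140 measured probes outside the 7 genes, and over 17 of the 26 bright ones. The same counts were 54 and 5 for Cox4i1, 57 and 6 for Cox5b and 49 and 6 for Mdh2. Without mouse 5 the log2 SD was 0.14 for Cox4i1/Mb, 0.22 for Cox5b/Mb, 0.077 for Cox6a2/Mb, 0.29 for Cox8a/Mb, 0.19 for Mdh2/Mb and 0.090 for Pdha1/Mb. The difference in spread between ratios to Mb and ratios between subunits was not tested.

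**Figure D3:**
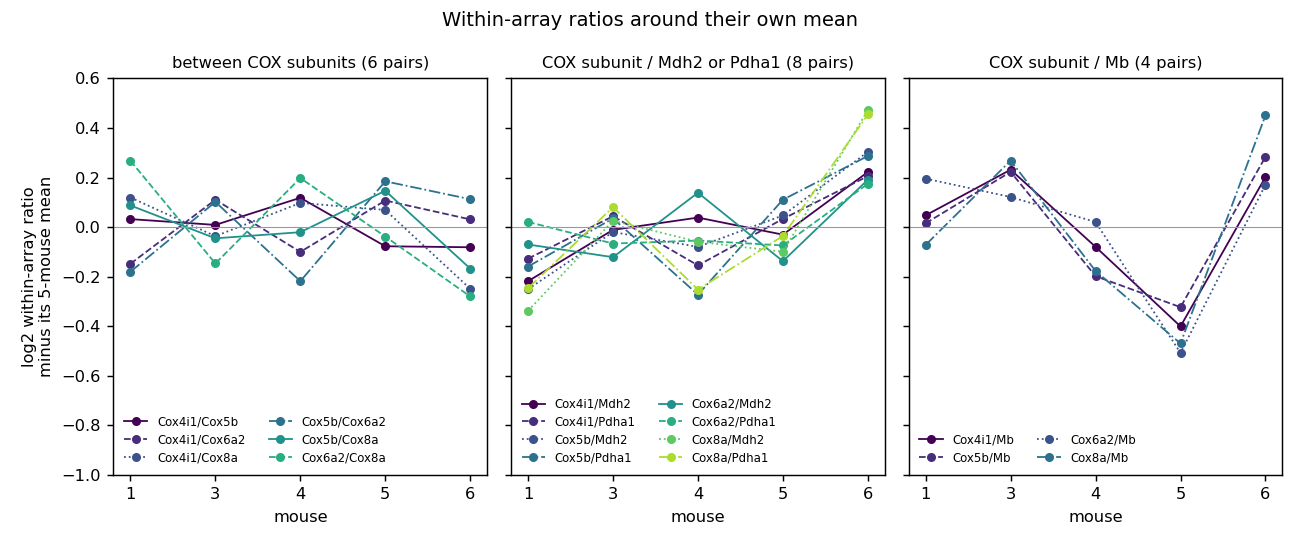
Log2 within-array ratio minus its own mean over 5 mice, for the 6 pairs of cytochrome oxidase subunits, the 8 ratios of a subunit to Mdh2 or Pdha1 and the 4 ratios of a subunit to Mb; each point is 1 mouse and lines only join values of a pair. All 8 ratios in the middle panel were highest in mouse 6, and all 4 ratios to Mb were lowest in mouse 5.

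Over all 21 pairs of the 7 genes the median log2 SD was 0.20, with a range of 0.083 to 0.37. Over all 10731 pairs of the 147 measured probes it was 0.75. After 0.05 was added to every value these medians were 0.20 and 0.35, and with the lowest value of each array subtracted 0.20 and 0.49. Dim probes are noisier, so a second reference took the 325 pairs of the 26 other probes at least as bright as Mdh2, and their median was 0.51, or 0.48 and 0.50 in the same 2 settings. Of these bright pairs 0.923% had a log2 SD at or below the median of the 6 subunit pairs, 3.38% at or below that of the 21 pairs, and 10.2% at or below that of the 4 ratios to Mb. The first share was 3.08% without mouse 1, 2.77% without mouse 4, 1.85% without mouse 3, 1.54% without mouse 5 or without mouse 6, and 10.8% with quantile normalisation. The pairs share probes and arrays, and these shares are descriptions of 5 arrays. The bright reference was chosen after the data had been seen.

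**Figure D4:**
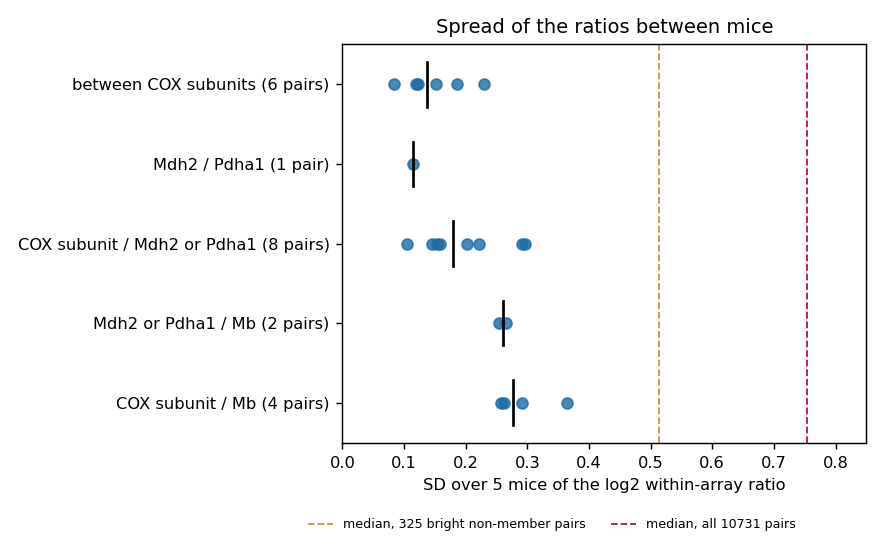
SD over 5 mice of the log2 within-array ratio for each of the 21 pairs (points), grouped by kind of pair with the group's median as a black bar; dashed lines are the medians of 325 pairs of bright other probes (0.51) and of all 10731 pairs (0.75). All 21 pairs lay below both dashed lines, with the subunit pairs at a median of 0.14 and the ratios of a subunit to Mb at 0.28.

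Every other measured probe was ranked by the SD of its log2 ratio to a given gene. Cox4i1, Cox5b, Cox6a2, Mdh2 and Pdha1 ranked at 18 or nearer from each other, though not always first. Mb ranked between 21 and 45 from each of the other 6. Cox8a ranked 27 from Mdh2 and 24 from Pdha1, about as far as Mb, at 24 and 21. For Cox4i1, 5 of the other 6 genes were among its 10 nearest of 146 probes, for Cox6a2 4, for Cox5b and Pdha1 3, and for Cox8a and Mdh2 2. From the side of Mb, 4 of the 6 were among the 10 nearest. Pdha1 was the nearest probe of all to Cox6a2, and Cox5b the nearest to Cox8a. Cox8a and Mb were the farthest apart.

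By the same measure the 5 genes outside the group whose pattern over 5 mice was most like the mean of the 4 subunits were Tfrc, Igf2, Vegfa, Fabp4 and Pgk1. Tfrc, the transferrin receptor of iron uptake, had a log2 SD of 0.088 to the subunit mean, with values of 0.0858, 0.0493, 0.0561, 0.0559 and 0.0853 in mice 1, 3, 4, 5 and 6. Igf2, a growth factor, was at 0.10, the angiogenic factor Vegfa at 0.12, Fabp4 at 0.13 and the glycolytic enzyme Pgk1 at 0.15, against a median of 0.51 over 133 named probes. Tfrc and Vegfa are dim. After 0.05 was added to every value, Tfrc ranked 8 and Vegfa 31, while Igf2, Fabp4 and Pgk1 ranked 1, 3 and 5. Fabp4 marks fat cells and was at 0.228, 0.131, 0.138, 0.134 and 0.205. It was the 1 measured marker of 2 fat cell markers on the array, and the other, Lipe, was at or below 0 on all arrays. The part of fat cells in the result was not tested.

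For Mb the nearest genes were Igf2, Tfrc, Vegfa, the glucose transporter Slc2a4 and the beta-oxidation enzyme Hadh. Their log2 SDs ran from 0.22 to 0.27, against a median of 0.63. These SDs are to a single probe and those above to a mean of 4 probes, so the values for Mb and for the subunits are not on the same footing.

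Genes of fatty acid oxidation had log2 SDs to the subunit mean of 0.27 or more, against 0.23 or less for the 6 subunit pairs. The former are to a mean of 4 probes and the latter between single probes, so they are not on the same footing. A list of respiratory chain, citrate cycle and pyruvate entry genes had 7 members on the array. These were the 6 genes described here other than Mb, and Pcx, pyruvate carboxylase, which was above 0 in 2 of 5 mice and at most at 0.0033. Mitochondrial fatty acid entry and oxidation was measured for 4 of 4 genes on the array, with a median log2 SD to the subunit mean of 0.33. Hadh was the nearest, at 0.27, and the acyl-CoA dehydrogenase Acadm the farthest, at 0.45. The uncoupling protein Ucp3 was at 0.34. Hadh had a mean signal of 0.248, but Acadm, at 0.028, and the others were dimmer than Mdh2, at 0.204. The part of dimness in these SDs was not tested.

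The 6 glycolytic genes measured had a median log2 SD to the subunit mean of 0.23, from 0.15 for Pgk1 to 1.08 for the dim hexokinase Hk1. The myofibre list, of 4 myosin heavy chains and desmin, had a median of 0.32, from 0.23 for the fast chain Myh4 to 0.36 for Des. Regulators of mitochondrial genes were measured for 4 of 7 genes on the array, with a median of 0.75. They are dim as a rule. Tfam, a transcription factor of mitochondrial DNA, was above 0 in 1 mouse only, at 0.0023 in mouse 4, so its relation to the subunits was not detectable at this signal.

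The spread of single genes was also tested against the trend of all probes, since the log2 SD falls with signal. On quantile-normalised values none of the 7 genes was called wider or narrower than the trend, and neither was any of the 146 probes tested (0% in each direction). For the 7 genes the adjusted p was at least 0.90 for a wider and at least 0.70 for a narrower spread (limma, Benjamini-Hochberg). Over all 146 probes the lowest adjusted p was 0.89 for a wider and 0.34 for a narrower spread (limma). Before adjustment, limma put 7 probes above and 8 below the trend at p below 0.05. About 1 in 20 of the 146 probes would pass in each direction by chance. Cox4i1 was among the 8, with an SD 0.360 times the trend. Quantile normalisation sets bright probes by rank, and Cox4i1 ranked 16 or 17 by signal on every array. A narrow SD in that setting therefore partly reflects its steady rank. Before adjustment, the p of Cox4i1 for a narrower spread was 0.31 as deposited, 0.27 scaled to the array median and 0.086 scaled to the array total (limma). This test looks at genes singly and does not see a ratio. In simulated data it recovered few probes given a much narrower spread, so the lack of narrower calls says little.

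Upstream sequences were drawn from RefSeq (GRCm38.p6) for Cox5b, Cox8a, Mdh2, Pdha1 and Mb, 5 of the 7 genes. Cox4i1 and Cox6a2 were not matched. The 150 bases before the start site are shown for Cox5b and Mb. The ratio of Cox5b to Cox4i1 had the smallest log2 SD as deposited, and the ratios to Mb had larger ones. Capitals mark those motif matches described below that lie within the printed bases. They lie at chr1:36691337-36691486 on the plus strand and at chr15:77022728-77022877 on the minus strand. Of the 3 Mb start sites the most downstream was used.
Cox5b: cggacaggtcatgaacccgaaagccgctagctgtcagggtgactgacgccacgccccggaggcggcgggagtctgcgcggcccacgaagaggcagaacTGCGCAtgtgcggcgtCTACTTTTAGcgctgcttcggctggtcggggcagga
Mb: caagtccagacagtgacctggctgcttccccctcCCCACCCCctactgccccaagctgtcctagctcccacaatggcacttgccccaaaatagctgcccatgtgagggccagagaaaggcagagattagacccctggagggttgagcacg

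Motifs were searched on both strands in windows of 300 bases, 250 before and 50 after the start. TGCGCA, the half-site of the respiratory gene regulator NRF-1, was found in the windows of Cox5b and Mdh2 and in 7.76% of all 32851 windows. CGGAAG, the core bound by ETS factors such as NRF-2, was found in Cox5b, Cox8a and Mdh2 and in 16.9% of all windows. The MEF2 frame, CTA and TAG with any 4 bases between them, was found in Cox5b, as CTACTTTTAG, and in 3.69%. Only the outer bases of a MEF2 site were matched, and the 4 middle bases were not checked. CAGCTG, an E-box of muscle genes, and CCCACCCC, a CCAC box, were found in Mb alone of the 5, and in 16.3% and 9.40% of all windows. None of these motifs was in the Pdha1 window. The CGGAAG matches of Cox5b, at 2 and 38 from the start, lie outside its printed stretch. So does the CAGCTG match of Mb, at -193. The printed stretch of Cox5b holds 17 CG dinucleotides and that of Mb holds 1, against a median of 4 over all promoters. A match describes letters in a window, and binding was not measured.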

How the data were processed

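Expression was measured on 5 arrays, 1 per mouse. The deposited values are linear intensity values for 223 probes. For scanner, background correction and scaling no method is given in the sources used here. Probes were named through the platform annotation and the GRCm38.p6 gene table (205 named, 18 not, 204 in the mouse table). Precision is limited by the number of arrays, 5.

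The members and lists were chosen with earlier results of these data known. Named genes were the 7 members, the 5 genes nearest to the subunit mean and to Mb, and the nearest and farthest of each list; Pdha2, Tfam, Pcx, Ucp3 and Lipe were named after their values were seen. Levels and ratios used values as deposited, because quantile normalisation ties bright probes. The spread test used log2 values of 146 probes above 0 on all arrays, quantile normalised, without the probe brightest on every array (fitFDistRobustly, limma 3.58.1, statmod 1.5.0, R 4.3.3, Benjamini-Hochberg at 0.05). On simulated data the test recovered most probes given a much wider spread and few given a much narrower one. Alternatives were other scalings, an offset of 0.05, subtraction of the lowest value of an array, other filters, a fit that was not robust, and leaving out each mouse. P-values measure only the spread between these samples. Figures were drawn with matplotlib 3.10.9.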

Additional observations from a re-analysis of the deposited data

Results flagged for a closer look

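Of 28 sets of 5 values checked for a mouse far from the others, 7 genes and 21 ratios on the log2 scale, 1 had a gap beyond the Dixon limit of 0.71. About 1 in 20 independent sets would pass by chance, and ratios that share a gene are not independent. In the Cox6a2/Mb ratio mouse 5 was at 0.759, and the nearest of the other mice was at 1.09, a gap of 0.751 of the whole range.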

How the results depend on the processing

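No paired analysis was possible because there was a single group. A spread was counted as moved if it changed by more than 1 standard error of an SD from 5 values. With quantile normalisation the median log2 SD was 0.25 for the 6 subunit pairs, 0.29 for the 21 pairs and 0.35 for the ratios to Mb, and the median of all pairs was 0.72. Of the 21 pairs, 14 moved. There Mb takes 1 value in 4 of the 5 mice by rank alone. The ratios to Mb were still lowest in mouse 5 in 6 of 6, the ratios of a subunit to an entry gene were highest in mouse 6 in 6 of 8, and Cox8a was relatively highest in mouse 6 in 1 of 3 ratios. With the offset or the lowest value subtracted, all 21 pair SDs stayed within 1 standard error, and these 3 patterns held in full, while the median of all pairs fell to 0.35 and 0.49. These settings could change the ratios of the 7 genes only a little. The offset was 0.05 and the lowest value on any array -0.0168, while no value of the 7 genes was below 0.152.

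Leaving out each mouse gave 0.113 to 0.156 for the subunit pairs, 0.182 to 0.314 for the ratios to Mb and 0.156 to 0.233 for the 21 pairs. The median CV of the 7 genes, 30.9% as deposited, was 24.6% scaled to the array median, 15.0% scaled to the array total, 13.0% without the brightest probe in that total and 18.0% with quantile normalisation, and ran from 27.6% to 32.4% with a mouse left out. As deposited 2 probes were called wider than the trend, neither of them among the 7 genes. With a mouse left out no probe was called wider and 0 to 2 were called narrower (limma). The 2 narrower probes, called without mouse 5, were Mb and Cox6a2 (adjusted p 3.2e-05), which quantile normalisation then sets to nearly 1 value on the remaining arrays by rank. For the other 5 genes the adjusted p stayed above the threshold in every alternative.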
